A study of Mus musculus with 18 samples.

Results

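The 44 nuclear protein-coding genes described here encode subunits of cytochrome oxidase, complex III and ATP synthase, out of 21774 nuclear protein-coding genes placed on the chromosomes of the RefSeq GRCm38.p6 gene table. They were chosen by symbol, as the genes whose names start with Cox4, Cox5, Cox6, Cox7, Cox8, Uqcr, Atp5 or Cyc1. This rule was set with earlier results of these data known. The choice gave 18 cytochrome oxidase genes, 9 complex III genes and 17 ATP synthase genes. Of the cytochrome oxidase genes, 11 are ubiquitous and 7 are tissue-restricted isoforms. The assay was ATAC-seq, which maps open chromatin as the places where the Tn5 transposase can insert its adapters, on 18 samples of primary mouse cortical neurons. The groups were shOpa1_shATF4 with 5 samples, shOpa1_shScrambled with 5, shCtrl_shATF4 with 3 and shCtrl_shScrambled with 5, so that every culture, controls included, carried a pair of lentiviral shRNAs, directed at Opa1 or a control and at Atf4 or a scrambled sequence. All cultures came from CD1 mouse cortex at embryonic day 14.5 to 15, received the mitotic inhibitor cytosine arabinoside at 2 µM, were transduced on day 6 and were taken on day 11. The study asked how Atf4 knockdown alters accessibility with and without the mitochondrial stress of Opa1 loss, but the deposited list is 1 consensus set of 211682 peaks that gives nothing per sample or per group. Every value below therefore describes the consensus set and carries no replicate error, and none belongs to a particular knockdown.

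The enzymes encoded by these genes form the last steps of oxidative phosphorylation in the inner mitochondrial membrane. Complex III passes electrons from ubiquinol to cytochrome c, cytochrome oxidase passes them on to oxygen, and both pump protons that ATP synthase lets back to make ATP. Each complex combines subunits from the nucleus with subunits from the mitochondrial genome, and neurons draw most of their ATP from this route. Several cytochrome oxidase subunits exist as a ubiquitous isoform and as an isoform known mainly from heart and skeletal muscle, lung or testis. Nuclear respiratory factor 1 (NRF1) and the ETS factor GABP, also called NRF-2, are textbook activators of many genes of this class.

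RefSeq windows of 300 bases, which run from 250 bases before to 50 bases after a listed start of transcription on GRCm38.p6, are printed for 8 genes. They were picked as examples and are not all typical of their classes. Capitals mark matches on either strand to the NRF1 letters GCGCNTGCG, the ETS letters CCGGAAG, the estrogen-related receptor (ERR) letters AAGGTCA, the MyoD E-box CAGCTG and the TATA letters TATAAA, and N stands for any base. Cox6a1 (chr5:115348909-115349208, minus strand), Uqcrc1 (chr9:108936398-108936697, plus strand) and Atp5k (chr5:108434350-108434649, minus strand) come from a ubiquitous cytochrome oxidase subunit, complex III and ATP synthase, and hold NRF1 letters. Of the 9 ubiquitous cytochrome oxidase isoforms with a listed start, Cox6a1 is the only 1 that holds them.
Cox6a1: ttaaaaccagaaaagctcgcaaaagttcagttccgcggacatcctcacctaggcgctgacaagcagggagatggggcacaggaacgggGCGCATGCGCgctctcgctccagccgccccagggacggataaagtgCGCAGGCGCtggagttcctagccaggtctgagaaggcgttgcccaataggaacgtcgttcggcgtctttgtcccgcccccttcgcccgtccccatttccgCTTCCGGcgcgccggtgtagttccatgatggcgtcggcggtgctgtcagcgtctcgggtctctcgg
Uqcrc1: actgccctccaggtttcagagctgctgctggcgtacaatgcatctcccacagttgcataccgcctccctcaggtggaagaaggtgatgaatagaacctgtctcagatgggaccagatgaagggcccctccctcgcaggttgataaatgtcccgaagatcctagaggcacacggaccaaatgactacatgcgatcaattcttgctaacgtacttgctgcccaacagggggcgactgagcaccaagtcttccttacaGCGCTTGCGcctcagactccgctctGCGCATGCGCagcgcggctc
Atp5k: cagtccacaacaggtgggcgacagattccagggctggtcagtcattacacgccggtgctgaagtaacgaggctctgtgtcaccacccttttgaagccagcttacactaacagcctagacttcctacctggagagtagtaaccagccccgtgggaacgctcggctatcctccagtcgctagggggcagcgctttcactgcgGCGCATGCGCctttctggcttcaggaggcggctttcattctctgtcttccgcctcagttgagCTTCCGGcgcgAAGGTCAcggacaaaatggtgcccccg

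The ubiquitous isoform Cox8a (chr19:7217567-7217866, minus strand) and its muscle counterpart Cox8b (chr7:140900397-140900696, minus strand) differ in their letters, with 2 matches to the ETS letters in Cox8a, and TATA letters with 2 E-boxes in Cox8b. Of the 4 tissue-restricted isoforms with a listed start, Cox8b is the only 1 with an E-box.
Cox8a: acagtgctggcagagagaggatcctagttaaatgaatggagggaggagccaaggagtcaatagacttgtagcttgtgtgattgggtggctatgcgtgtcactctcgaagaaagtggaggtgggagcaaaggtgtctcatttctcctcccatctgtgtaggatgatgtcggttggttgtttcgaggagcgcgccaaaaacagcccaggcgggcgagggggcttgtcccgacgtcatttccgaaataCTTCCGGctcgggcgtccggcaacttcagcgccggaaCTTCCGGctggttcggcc
Cox8b: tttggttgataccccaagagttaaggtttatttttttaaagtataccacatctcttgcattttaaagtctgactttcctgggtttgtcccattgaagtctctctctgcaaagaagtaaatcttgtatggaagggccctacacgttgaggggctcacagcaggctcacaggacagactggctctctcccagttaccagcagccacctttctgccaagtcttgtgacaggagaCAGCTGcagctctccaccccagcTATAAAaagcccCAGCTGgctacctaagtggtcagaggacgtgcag

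The ubiquitous Cox7a2 (chr9:79759804-79760103, minus strand) and its muscle counterpart Cox7a1 (chr7:30183921-30184220, plus strand) both lie in a peak, although neither window holds any of the marked letters. The testis isoform Cox7b2 (chr5:71548156-71548455, minus strand) is the 1 gene with a printed window outside every peak.
Cox7a2: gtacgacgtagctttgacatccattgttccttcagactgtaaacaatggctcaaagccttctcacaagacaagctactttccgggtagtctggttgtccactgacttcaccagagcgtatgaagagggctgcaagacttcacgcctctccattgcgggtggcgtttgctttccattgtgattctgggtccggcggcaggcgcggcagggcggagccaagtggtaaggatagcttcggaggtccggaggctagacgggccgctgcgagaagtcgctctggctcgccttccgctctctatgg
Cox7a1: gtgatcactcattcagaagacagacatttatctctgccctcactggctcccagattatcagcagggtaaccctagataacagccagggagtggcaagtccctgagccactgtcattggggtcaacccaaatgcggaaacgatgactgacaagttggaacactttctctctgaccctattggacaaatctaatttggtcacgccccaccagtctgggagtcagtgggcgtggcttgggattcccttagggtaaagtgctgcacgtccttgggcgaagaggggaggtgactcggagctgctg
Cox7b2: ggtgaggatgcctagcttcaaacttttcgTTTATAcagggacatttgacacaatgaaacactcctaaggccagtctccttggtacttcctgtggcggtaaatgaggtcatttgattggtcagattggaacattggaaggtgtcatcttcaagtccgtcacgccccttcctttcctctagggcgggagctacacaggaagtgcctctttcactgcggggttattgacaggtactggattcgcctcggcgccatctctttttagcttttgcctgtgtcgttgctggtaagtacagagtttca

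The neuron label was checked against marker genes. The start lay inside a peak for all 10 cortical neuron markers with a listed start, against 62.5% of all genes with one. Among markers of other tissues and cell types, the start lay inside a peak for 1 of 10 heart and skeletal muscle genes, 0 of 7 testis genes, 2 of 4 astrocyte genes and 0 of 4 microglia genes. A peak within 1000 bp of either gene end, a looser measure, was present for 8 of 10 heart and skeletal muscle genes, 2 of 8 testis genes, 3 of 5 astrocyte genes and 2 of 5 microglia genes, against 70.4% of all genes. The deposited score was 1000 for 98.5% of all peaks and for all 72 peaks at the ends of the 44 genes, so width and position are the measurements that vary here. The sequencing depth behind each peak is unknown. In bulk libraries, a region open in few cells and a region weakly open in all cells cannot be told apart.

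Of the 44 genes, 41 (93.2%) had a peak within 1000 bp of an outermost gene end, against a background of 70.4% of all 21774 genes. The 3 without one were the ubiquitous Cox7a2 and the testis isoforms Cox7b2 and Cox8c. Near the limit of the window stood Atp5g3, whose peak lay 725 bp from the end. The nearest peak of Cox7b2 lay 1579 bp from the end opposite its listed start. The end itself lay inside a peak in 39 genes (88.6%), against 57.9% of all genes. The widest end peak measured at least 500 bp in 37 genes (84.1%), against 63.2%, and at least 1000 bp in 28 (63.6%), against 44.5%. Among genes with an end peak, the median width of the widest was 1192 bp for these genes and 1133 bp for all genes, so the 2 sets were further apart in how often a peak was present than in its width. The 44 genes are short, with a median length of 6128 bp against 17219 bp. In 11 of them (25%) the windows at both ends held a peak, against 20.6% of all genes. In a short gene 1 peak can reach both windows, as it did at Atp5k, Cox5b and Cox6a2. Within 10 kb of the gene, body included, the median number of peaks was 4.5 for these genes and 5 for all genes.

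**Figure D1:**
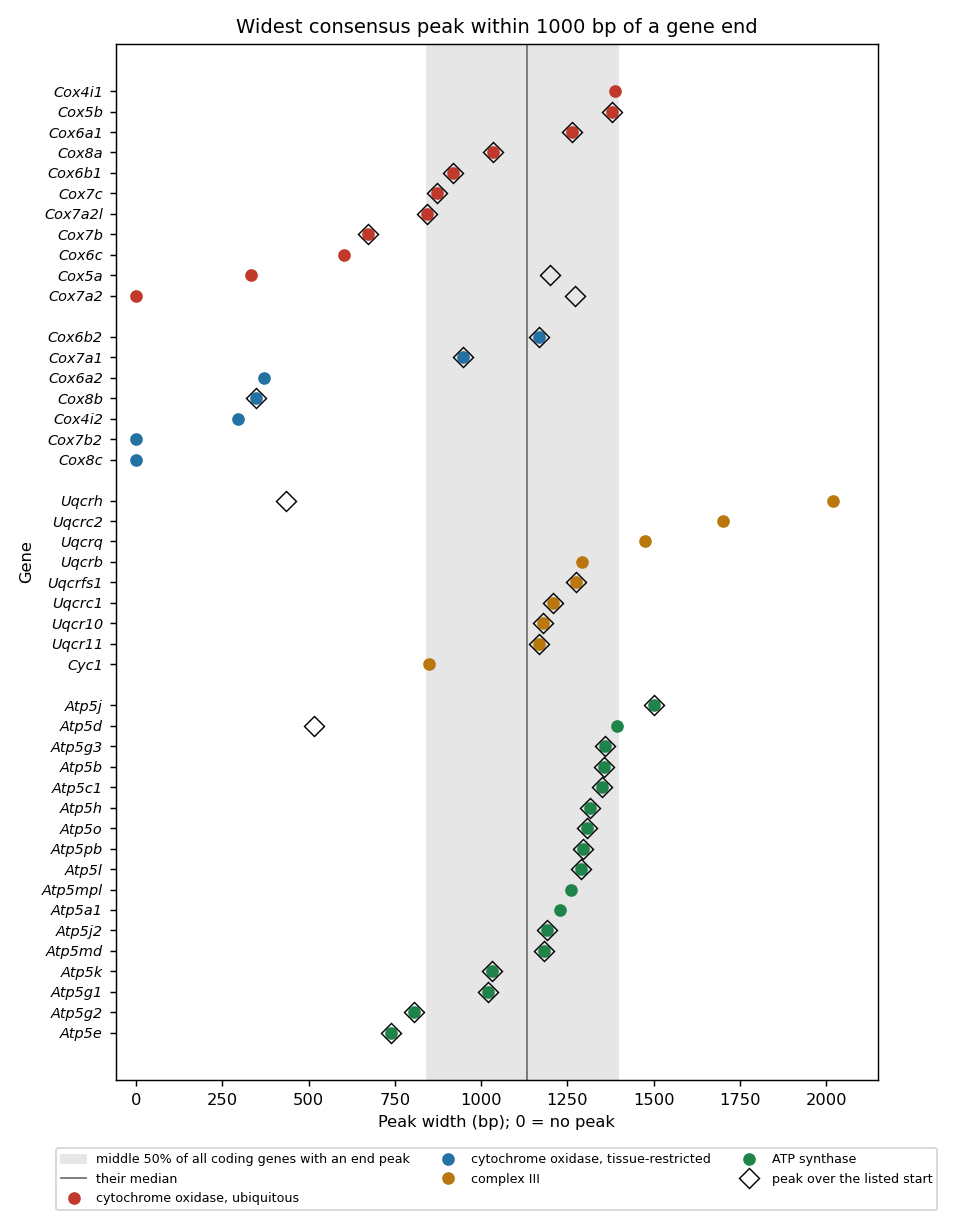
Width in bp of the widest consensus peak within 1000 bp of a gene end (filled points, coloured by class) and of the peak over the listed start (open diamonds) for each of the 44 genes; the grey band spans 842 to 1398 bp, the middle 50% of all coding genes with an end peak, and the line marks their median of 1133 bp. ATP synthase and complex III points run from 739 to 2021 bp, all but Atp5e and Atp5g2 in or above the band, while 5 of the 7 tissue-restricted isoforms lie at 370 bp or below, and Cox7a1 and Cox6b2 lie at 946 and 1167 bp.

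All 17 ATP synthase genes had an end peak, against 70.4% of all genes, with a median of 1288 bp and a range of 739 to 1500 bp. In the F1 part, which binds nucleotides and turns the central stalk, the widest peaks measured 1229 bp at Atp5a1 (alpha subunit), 1356 bp at Atp5b (the catalytic beta subunit) and 1350 bp at Atp5c1 (gamma, the rotating stalk). Atp5d (delta) had a peak of 1394 bp, which lay 390 bp outside the gene, and Atp5e (epsilon) had 739 bp. By end peaks Atp5e was thus the narrowest of the complex, at the 19.7 percentile of genes with an end peak. The listed start of Atp5d lies 3577 bp inside its outermost end, in a peak of 515 bp, which is narrower than the 739 bp over the start of Atp5e. The c ring, whose subunit is encoded by 3 genes with the same mature protein, spread from 806 bp at Atp5g2 through 1019 bp at Atp5g1 to 1358 bp at Atp5g3. The 3 genes for the same protein thus covered a broader range of widths than the 4 genes of the peripheral stalk, which holds the F1 head still. In that stalk the widths were 1295 bp at Atp5pb (subunit b), 1307 bp at Atp5o (OSCP), 1316 bp at Atp5h (subunit d) and 1500 bp at Atp5j (coupling factor 6). The small membrane subunits, which include those that hold ATP synthase dimers together, lay close to each other. Atp5k (subunit e) had 1032 bp, Atp5md (DAPIT) 1181 bp, Atp5j2 (subunit f) 1192 bp, Atp5mpl (a small proteolipid) 1259 bp and Atp5l (subunit g) 1288 bp.

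All 9 complex III genes had an end inside a peak, against 57.9% of all genes, and their widest end peaks had a median of 1275 bp. The subunits with redox centres stood at 848 bp for Cyc1 (cytochrome c1) and 1275 bp for Uqcrfs1 (the Rieske iron-sulfur protein). The large core proteins had 1207 bp at Uqcrc1 and 1701 bp at Uqcrc2. Uqcrc2 was thus at the 90.5 percentile of genes with an end peak, and Cyc1 at the 25.4 percentile. The small accessory subunits ranged from 1167 bp at Uqcr11 through 1178 bp at Uqcr10, 1291 bp at Uqcrb and 1475 bp at Uqcrq to 2021 bp at Uqcrh (the hinge protein). The widest value does not cover the start of Uqcrh. That peak, chr4:116075250-116077270 on mm10, begins 180 bp outside the gene and holds an end of the neighbour Lrrc41, while the listed start of Uqcrh lies in a peak of 433 bp.

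Cytochrome oxidase was the only complex of the 3 with genes that lacked an end peak, with 15 of 18 carrying one (83.3%, against 70.4% of all genes). The median was 872 bp and the range 296 to 1388 bp. Among the ubiquitous subunits, 10 of 11 (90.9%) had an end peak, with a median of 895.5 bp. The widest were 1388 bp at Cox4i1 (the regulatory subunit IV), 1379 bp at Cox5b (a zinc-binding subunit) and 1264 bp at Cox6a1. The 1388 bp peak also holds ends of the neighbours Emc8 and Gm27021, and the Cox4i1 end peak without a coding neighbour measured 234 bp. Cox8a had 1034 bp, Cox6b1, which lies at the dimer interface, 919 bp and Cox7c 872 bp. Cox7a2l, whose product joins complex III and cytochrome oxidase into supercomplexes, had 843 bp, the X-linked Cox7b 673 bp and Cox6c 603 bp. These subunits surround the catalytic core, which the mitochondrial genome encodes, and their median width was below the 1133 bp of all genes with an end peak. Cox5a stood at 334 bp at its outermost end, and Cox7a2 had no peak there.

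For Cox5a and Cox7a2 the outermost end is not the start in use in the promoter table. The listed start of Cox5a lies 3904 bp inside the gene in a peak of 1199 bp (chr9:57520744-57521942). That of Cox7a2 lies 11569 bp inside the gene in a peak of 1273 bp (chr9:79759276-79760548), whereas the peak nearest to an outermost end was 4035 bp away. With a listed start counted beside the ends, a choice made after the data were seen, all 11 ubiquitous isoforms had a peak, against 72.7% of all genes, with a median of 1034 bp and a range of 603 to 1388 bp. Of the 7 tissue-restricted isoforms, 5 had one (71.4%, at the level of all genes), again all but Cox7b2 and Cox8c, with a median of 370 bp and a range of 296 to 1167 bp. The classes could not gain alike, because listed starts exist for 9 of the 11 ubiquitous but 4 of the 7 tissue-restricted isoforms. Cox4i2, Cox6a2 and Cox8c have none and were judged by their ends alone. The difference of the medians, ubiquitous minus tissue-restricted, was 664 bp at this setting, the largest of those tried. It was 525.5 bp at outermost ends and 88 bp at listed starts, and it reversed to -137.5 bp among end peaks of at least 500 bp, which leave 2 tissue-restricted isoforms.

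The tissue-restricted isoforms differed within each tissue class. Of the muscle isoforms, Cox7a1 had a peak of 946 bp over its start, while Cox6a2 had 370 bp and Cox8b 348 bp. Of the testis isoforms, Cox6b2 had 1167 bp, whereas Cox7b2 and Cox8c had no end peak. Cox4i2, known from lung, had peaks of 296 and 287 bp that lay 499 and 167 bp from its end and did not cover it. Only 2 of the 7 (28.6%) thus had an end peak of at least 500 bp, against 9 of the 11 ubiquitous isoforms (81.8%) and 63.2% of all genes. That count of 2 holds for the peaks as listed. The peaks of Cox4i2 (chr2:152764245-152764540 and chr2:152764586-152764872) lie less than 150 bp apart. With peaks at most 150 bp apart joined, they form a single region of more than 500 bp. The peak of Cox6b2 (chr7:4752436-4753602) also holds an end of the neighbour Fam71e2, and Cox6a2 has an end of Itgad nearby.

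Set against their partners at an end or a listed start, the ubiquitous isoform had the wider peak in 6 of 7 pairs. The differences, ubiquitous minus tissue-restricted, were 1092 bp for Cox4i1 and Cox4i2, 1034 bp for Cox8a and Cox8c, 894 bp for Cox6a1 and Cox6a2, and 686 bp for Cox8a and Cox8b. They were 673 bp for Cox7b and Cox7b2 and 327 bp for Cox7a2 and Cox7a1. The exception was Cox6b1 and Cox6b2, at -248 bp. The peaks compared for Cox4i1 and Cox6b2 also hold ends of other coding genes. Cox4i1, Cox4i2, Cox6a2 and Cox8c have no listed start and stand by their ends alone. Cox8a stands in 2 of the pairs, so the 7 differences are not independent. By outermost ends alone the count was 5 of 7, because Cox7a2 then has no peak.

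**Figure D2:**
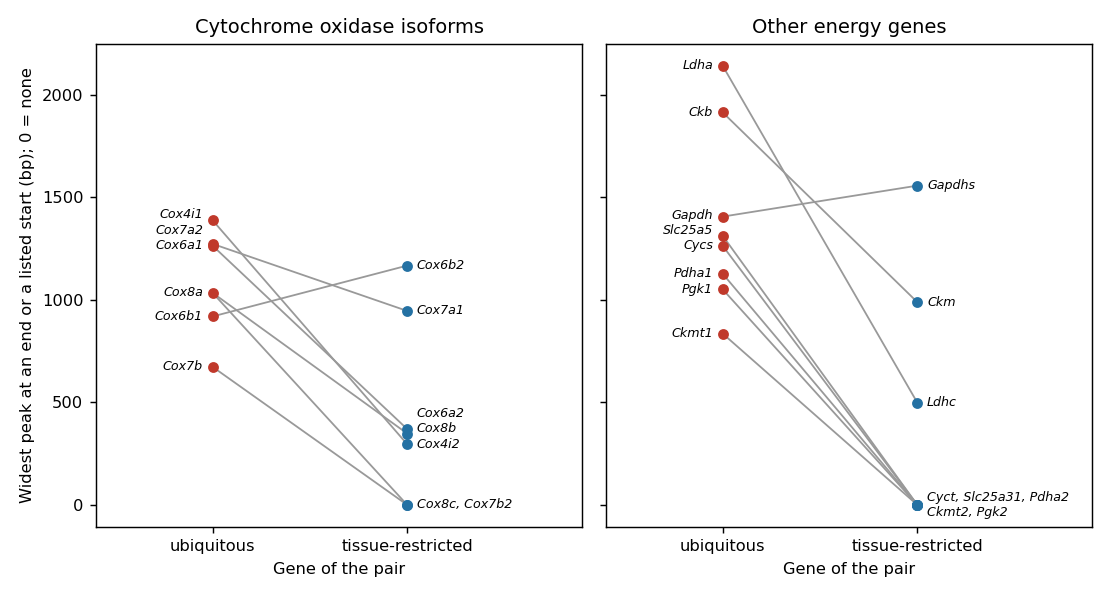
Width in bp of the widest peak within 1000 bp of an outermost end or a listed start, for the ubiquitous gene (left points) and its tissue-restricted counterpart (right points) of each pair, joined by lines, with cytochrome oxidase isoforms in the left panel and other energy genes in the right. Lines fall to the right in 6 of 7 and 7 of 8 pairs, and the exceptions are Cox6b2 at 1167 bp and Gapdhs at 1557 bp.

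Other energy genes with a germ-cell or muscle copy were set side by side in the same way. In 7 of 8 such pairs the ubiquitous gene had the wider peak at an end or a listed start, and in 6 of 8 by outermost ends alone, where Ldha (lactate dehydrogenase A) has none and its testis copy Ldhc has 499 bp. Cytochrome c is carried by Cycs in somatic cells, with a peak of 1263 bp, and by Cyct in testis, with none. The adenine nucleotide carrier Slc25a5 had 1312 bp and its testis copy Slc25a31 none. The exception was glyceraldehyde phosphate dehydrogenase, with 1406 bp at Gapdh and 1557 bp at the sperm gene Gapdhs, whose listed start lay outside any peak. Of the cytosolic creatine kinases, the brain form Ckb had 1914 bp, over its listed start, and the muscle form Ckm 989 bp. The listed starts of Ckm and Ldhc also lay outside any peak.

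Listed starts were on hand for 33 of the 44 genes, and in 32 (97.0%) the start lay inside a peak, against 62.5% of 17492 genes. The exception was Cox7b2. Genes without a listed start were Atp5a1, Atp5mpl, Cyc1, Uqcrb, Uqcrc2, Uqcrq, Cox4i1, Cox4i2, Cox6a2, Cox6c and Cox8c. All 15 ATP synthase genes, all 5 complex III genes and all 9 ubiquitous isoforms with a listed start had it inside a peak, as did 3 of 4 tissue-restricted isoforms. The peak over the start had a median width of 1179.5 bp (348 to 1500 bp), against 1163 bp over all genes. It reached a median of 480 bp upstream and 569 bp downstream, against 478 and 630 bp, so its placement differed little between the 2 sets. It reached further downstream than upstream in 18 of 32 genes, against 6830 of the 10615 genes whose first listed start lay inside a peak.

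**Figure D3:**
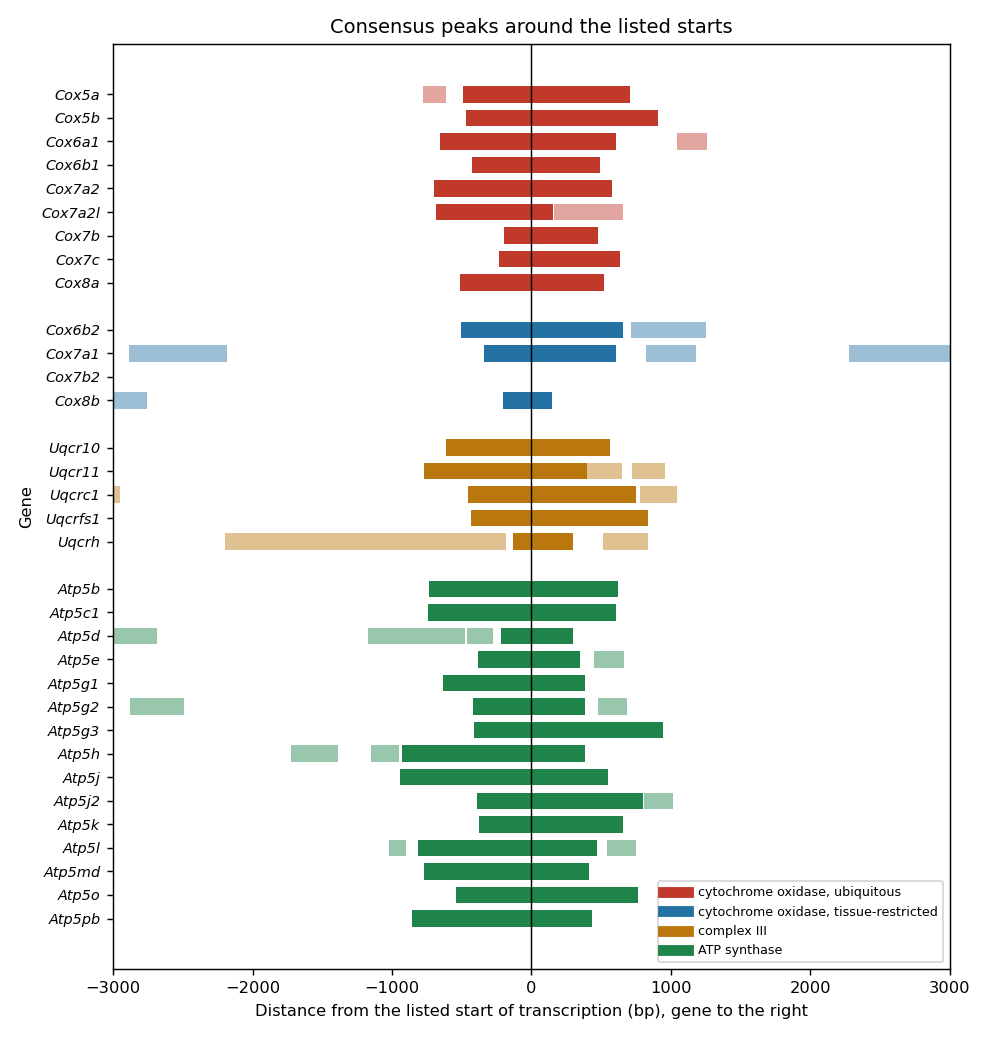
Consensus peaks within 3000 bp of the listed start of transcription for 33 genes, with distance from the start in bp on the x axis and the gene body to the right; solid bars are peaks over the start, pale bars are other peaks. A peak spans the line at 0 in every row but Cox7b2, and those of Cox8b (348 bp), Uqcrh (433 bp) and Atp5d (515 bp) are the narrowest.

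Some start regions were cut into several listed peaks. Uqcrh has its 433 bp start peak directly beside the 2021 bp peak, and the 515 bp start peak of Atp5d follows a pair of others. When peaks at most 150 bp apart were joined, a setting added after the data were seen, 12 of 32 start peaks (37.5%) merged with a neighbour, against 26.2% of 10615. The joined region at Uqcrh then measured 2499 bp, and that at Atp5d 1465 bp. Cox6b2 measured 1759 bp, while Cox8b still measured 348 bp, Cox7b 673 bp and Cox7a1 946 bp. The median joined width was 1301 bp for these genes and 1264 bp for all genes. At that setting the narrow starts of Uqcrh and Atp5d became wide, and that of Cox8b did not.

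Some of the end peaks and start peaks lay near or over an end of another gene. In 17 of the 41 genes with an end peak (41.5%), such a peak lay within 1000 bp of the end of another protein-coding gene, against 29.6% of 15320. In 6 of 32 genes (18.8%) the peak over the start also held the listed start of a gene on the opposite strand, against 13.7% of the 10937 genes with any listed start inside a peak. Atp5j has 2 listed starts, and 1 of them lies 148 bp from the start of Gabpa, which encodes the DNA-binding subunit of GABP itself. A peak of 1500 bp (chr16:84834423-84835922) covers all of these starts. The CpG number given for Atp5j below belongs to its other start. The others were Atp5c1 with Kin (102 bp between starts), Atp5md with Pdcd11 (119 bp), Atp5h with Kctd2 (207 bp), Atp5pb with Wdr77 (235 bp) and Uqcr10 with Zmat5 (312 bp). All of these but Uqcr10 belong to ATP synthase. Without peaks near the end of another coding gene, 30 of the 44 genes kept an end peak, against 12525 of 21774 (57.5%). The 44 genes were thus closer to all genes at this setting than with every peak counted, where the shares were 93.2% and 70.4%. The losses were Atp5c1, Atp5h, Atp5j, Atp5md, Atp5pb, Cox6a2, Cox6b2, Uqcr10, Uqcrb, Uqcrh and Uqcrq.

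CpG dinucleotides, which cluster at broadly active promoters, were counted in the windows. The 33 windows held a median of 19 CpGs (2 to 43), against 13 over all 17492 genes and 22 over the 10615 genes whose first listed start lies inside a peak. At least 10 CpGs were present in 30 (90.9%), against 57.2% of all genes and 87.5% of those 10615. The GC content had a median of 55.7%, against 56.3% over all genes and 61.7% over those 10615. By CpG number the 33 genes were thus nearer to the 10615 genes, and by GC content nearer to all genes. The ubiquitous isoforms had a median of 19, and the 4 tissue-restricted isoforms 8.5, with 10 at Cox6b2, 10 at Cox7b2, 7 at Cox7a1 and 2 at Cox8b. Cox7b, with 5, was the CpG-poorest ubiquitous isoform.

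Wider start peaks went with more CpGs across genes. Over the 32 genes with a start inside a peak, Pearson's r was 0.58 and Spearman's rho 0.57, against 0.38 and 0.37 over 10615 genes. These are correlations across genes of 1 consensus list, which share libraries and peak calling and are not independent replicates. Across all genes, 8.06% of starts with at most 4 CpGs lay inside a peak, and 97.9% of those with 30 or more. Cox8b is in the class with at most 4 CpGs, and its 348 bp stood beside a median of 656 bp for the starts of that class inside a peak. Cox7a1 is in the class with 5 to 9 CpGs, in which 38.4% of starts lay inside a peak, and its 946 bp was next to the median of 948.5 bp. Cox7b2 lay outside every peak, in a class of 10 to 19 CpGs in which 86.0% of starts lay inside one.

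**Figure D4:**
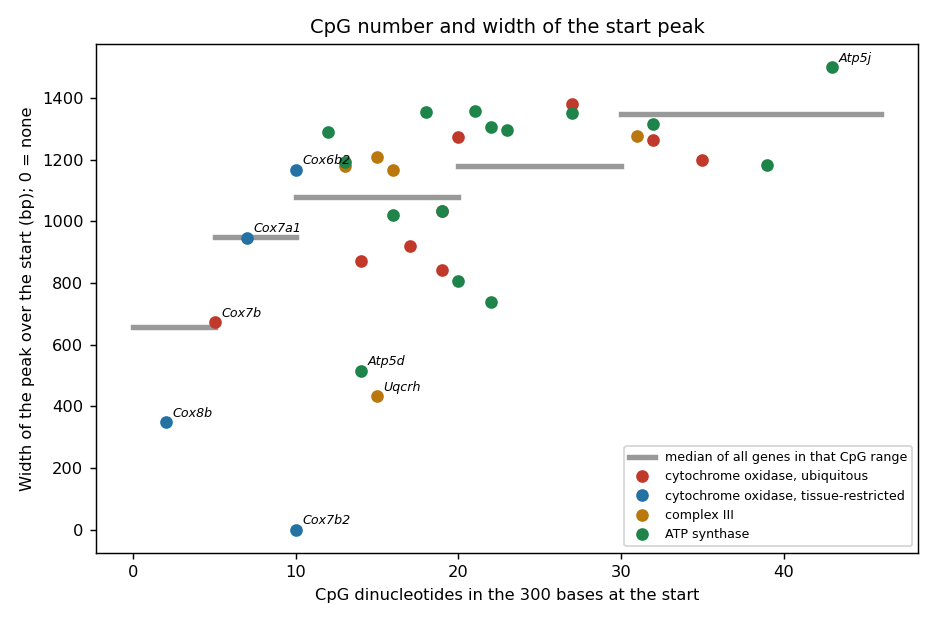
Width in bp of the peak over the first listed start (y axis, 0 where there is none) against the number of CpG dinucleotides in the 300 bases at that start (x axis) for 33 genes, coloured by class, with grey bars for the median of all genes with the start inside a peak in each CpG range. Points rise from Cox8b at 2 CpGs and 348 bp to Atp5j at 43 CpGs and 1500 bp, and Cox7b2 lies at 0 with 10 CpGs.

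NRF1 letters were present at the listed starts of 13 of 33 genes (39.4%), against 15.1% of the 10615 genes with the first listed start inside a peak and 9.68% of all genes. By complex these were 9 of 15 ATP synthase genes, 3 of 5 complex III genes, 1 of 9 ubiquitous cytochrome oxidase isoforms (Cox6a1) and 0 of 4 tissue-restricted ones. ETS letters were present in 11 genes (33.3%), against 19.1% and 12.9%, and among these were Cox6a1, Cox6b1 and Cox8a. None of the 4 tissue-restricted isoforms held them, but 4 windows are too few to tell their shares from either background. Either of the 2 was found in 18 genes (54.5%), against 30.8% and 20.6%, and both were found in 6 (18.2%), against 3.31% and 2.06%. The 6 were Atp5h, Atp5k, Atp5l, Atp5md, Cox6a1 and Uqcr11. A match is a description of letters and not a binding site, and ETS and NRF1 letters are both GC-rich.

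In the printed windows the letters lay at differing distances from the start. In Cox6a1 the NRF1 letters lie from -162 to -153 and from -116 to -108, with ETS letters from -16 to -10, counted from 0 at the listed start base. In Uqcrc1 the NRF1 letters lie from 5 to 13 and from 30 to 39. In Atp5k they lie from -50 to -41, with ETS letters from 12 to 18 and ERR letters from 23 to 29. Cox8a has ETS letters across its start, from -5 to 1, and again from 32 to 38. Cox8b has TATA letters from 4 to 9, flanked by E-boxes from -19 to -14 and from 16 to 21. The TATA letters of Cox7b2 lie from -221 to -216.

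Of the other motifs, the ERR and YY1 letters had shares above both backgrounds, but in only 4 genes each. The MEF2 share of 24.2% was near the 21.7% of all genes, and the rest were not above both backgrounds. The Sp1 letters GGGCGG were less frequent in these genes, at 12 of 33 (36.4%), than among those 10615 genes, at 70.6%, or all genes, at 49.2%. ERR letters were found in 4 genes, all of ATP synthase (Atp5e, Atp5g3, Atp5k and Atp5l; 12.1%, against 3.28% and 4.73%). YY1 letters AAGATGG were in 4 genes (12.1%, against 7.84% and 7.18%) and TATA letters in 4 (12.1%, against 8.04% and 14.8%). The E-box was in 2 genes, Atp5b and Cox8b (6.06%, against 17.6% and 17.4%). The loose MEF2 letters CTANNNNTA were in 8 (24.2%, against 16.1% and 21.7%). The composite letters TGATGNAA, known from targets of ATF4, were in 0 of 33 windows, against 2.48% and 4.13%. The cyclic AMP response element TGACGTCA, a palindrome bound by bZIP factors, was in Uqcrfs1 alone (3.03%, against 3.72% and 2.54%). No match says only that these letters are not in this window.

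**Figure D5:**
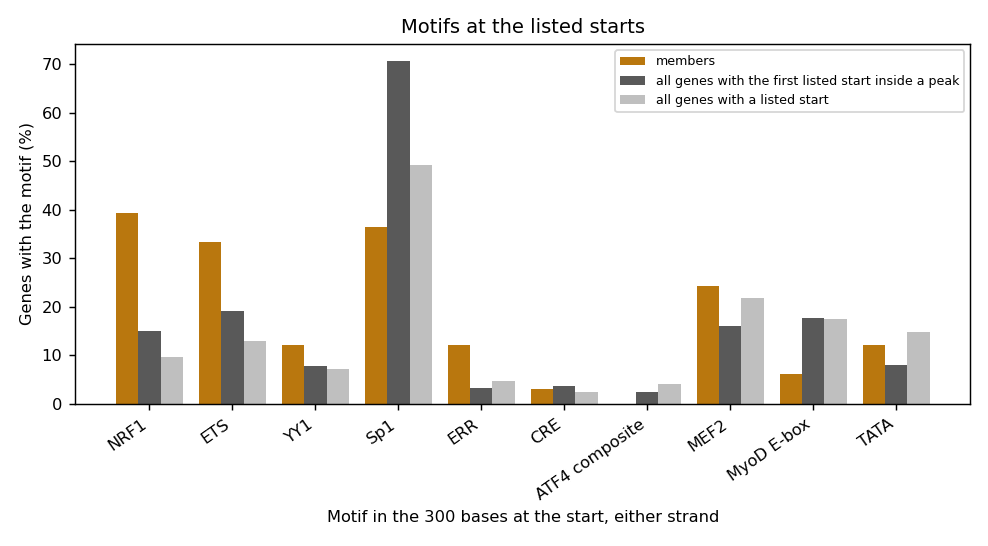
Share in percent of genes whose listed starts hold each motif within the 300-base window on either strand (bars from 0), for the 33 genes described here, for the 10615 genes with the first listed start inside a peak, and for all 17492 genes with a listed start. The NRF1 (39.4%), ETS (33.3%), ERR (12.1%) and YY1 (12.1%) bars are taller for the 33 genes than for both backgrounds. The MEF2 bar (24.2%) is near that of all genes (21.7%). The Sp1 (36.4%) and MyoD E-box (6.06%) bars are lower than both, and the ATF4 composite bar is at 0.

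The rest of the respiratory chain had end peaks as often. Of 49 genes with the Nduf symbols of complex I, 47 had one (95.9%, against 70.4% of all genes), with a median of 1126 bp. Those without were Ndufb4b and Ndufb4c. These 49 include 8 Ndufaf assembly factors as well as Ndufa4 and Ndufa4l2, which all had one, and the other 39 had one in 37 (94.9%). All 4 complex II genes, all 19 cytochrome oxidase assembly factors and all 6 complex III assembly factors had one, with medians of 1149, 1121 and 1038.5 bp. Of the 3 ATP synthase assembly factors, Atpaf2 had none at an end, although its listed start lay inside a peak of 1656 bp. The share over the 49 genes was thus close to the 93.2% of the 44 genes. Leaving out the tissue-restricted isoforms, the share among the members was 36 of 37 (97.3%), with a median of 1244 bp.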

How the data were processed

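Only the consensus peak list was analysed. Per the submitters' processing notes, the tools were MACS2, deepTools and MultiQC and the build mm10; versions, aligner, thresholds, duplicate handling and the samples behind the list: not given in the sources used here. Each peak's score, deposited by the authors, served for no ranking. Peak start and end are the deposited positions, and 1 base was added to each start. Depth is unknown.

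Genes, chromosomes and ends came from the RefSeq table of GRCm38.p6; 365 of 49997 entries on scaffolds were left out. A gene had an end peak if 1 base of a peak lay within 1000 bp of either outermost end. Starts and sequences came from the RefSeq promoter table, which lists some genes with several starts; a motif counted in any listed window, and CpG counts and widths used the first. All members are named, with the genes of the pathway lists that lack an end peak. Among these, Pdha2, Ckmt2 and Pgk2 of the energy gene pairs are not described above. Neighbours near an end peak are named only in part. Others were named after their values were seen. Members and lists were chosen with earlier results of these data known. Isoform classes are textbook assignments. The planned edgeR tests between groups need counts per sample and were not run. End peaks of the cortical neuron markers are not reported here. Overlap code was checked on planted peaks. Python 3.11.15, pandas 2.3.3, numpy 2.4.6, scipy 1.17.1 and matplotlib 3.10.9 were used.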

Additional observations from a re-analysis of the deposited data

Results flagged for a closer look

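The mitochondrial genome, which lies outside the nuclear gene ends described above, held 8 consensus peaks, a signal in data that no comparison above uses. Of the 6 mitochondrial genes of complex III, cytochrome oxidase and ATP synthase, 2 were touched by a peak: CYTB over 100% of its length and COX1 over 75.7%. COX2, COX3, ATP6 and ATP8 were touched by none, and 5 of the 7 complex I genes were. For mitochondrial reads, the authors' handling was not given in the sources used here.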

How the results depend on the processing

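No paired analysis was possible because the list holds no values per sample, and no sample could be left out. Of the recomputed counts, 41 stayed within 1.5 times the reported count and 5 did not. That rule looks at counts alone, while the share of all genes ranged from 57.5% to 77.0% over the settings. It therefore does not show whether the distance from all genes was kept. Tissue-restricted isoforms with an end peak numbered 2 when peaks had to measure at least 500 bp, 3 without peaks near the end of another coding gene and 3 at listed starts, where 4 were listed. Complex III genes numbered 5 under both of the last settings, and 5 were listed at starts. The median width difference, ubiquitous minus tissue-restricted isoforms with a peak, was 525.5 bp. It reversed to -137.5 bp for peaks of at least 500 bp, which keep 2 tissue-restricted genes, and was 222 bp with a 2500 bp window, 237.5 bp for peaks over the end, 509.5 bp without peaks near another gene, 88 bp at listed starts, 444 bp with peaks joined and 664 bp with ends or starts. The cause was not tested beyond the genes each setting keeps. With a 500 bp window Atp5g3 was lost, and with 2500 bp Cox7b2 was gained, through the end opposite its listed start. No ATP synthase member was a factor outside the complex, so that alternative changed nothing.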

Other observations

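Pseudogenes of these families had end peaks at about the general rate. Of 14 pseudogenes that carry the name prefixes, 3 (21.4%) had an end peak, against 14.0% of 10329 pseudogenes. They were Atp5l2-ps with 1015 bp, Uqcrh-ps1 with 266 bp and Uqcrh-ps2 with 272 bp. Their sequences resemble the parent genes, and the part of read placement between copies in these values was not tested.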
